A study of Mus musculus with 2 samples.

Results

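*Krt20*, *Esm1* and *Nppb* cells were 1 of the tumor cell populations in single-cell RNA of CT26 tumors. They were 1244 of the 13939 cells kept, 478 of 7163 in the untreated (UT) library and 766 of 6776 in the BUP library. The cells were chosen by their own counts of unique molecular identifiers (UMIs, each marking 1 captured RNA molecule). A cell was taken when its mitochondrial UMIs were under 20%, it had no *Ptprc* UMI, and *Krt20*, *Klk10*, *Nppb*, *Esm1*, *Btc* and *Prkg2* together gave 4 or more UMIs and at least as many as *Ogn*, *Aspn*, *Omd* and *Apod*. *Col1a1*, *Col1a2* and *Col3a1* together and *Lyz2* each had to stay under 20 UMIs per 10000, and *Hba-a1* with *Hbb-bs* under 500 per 10000. The levels of these genes are therefore a description of the choice, not a finding. For brevity they are called Krt20 cells, and the cells chosen by the mirrored rule, with more UMIs of *Ogn*, *Aspn*, *Omd* and *Apod*, are called Ogn cells.

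CT26 is a mouse colon carcinoma line without *Cdkn2a*, and it was grown under the skin of male BALB/c mice that were 6 to 8 weeks old at the start. UT tumors received no treatment, and BUP tumors received BUP-Gel, a hydrogel with 40 mg/kg of the local anesthetic bupivacaine. Each library held sorted live cells of 3 pooled tumors, so there was 1 library per group, no replicate and no test between UT and BUP. Sorted CD45+ cells were loaded with CD45- cells at a ratio that the labels give as 4 to 1 and the methods of the study as 3 to 1. No group with an empty gel was in these libraries, so the gel and the drug cannot be told apart.

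The genes that mark these cells come from separate lines of biology. *Krt20* encodes keratin 20, an intermediate filament protein of mature gut epithelium, *Klk10* a secreted kallikrein-related peptidase, and *Nppb* the precursor of B-type natriuretic peptide, a heart hormone that raises cyclic GMP in its target cells. *Esm1* encodes endocan, a proteoglycan known from endothelial tip cells, *Btc* betacellulin, a ligand of the EGFR, and *Prkg2* a cyclic GMP-dependent protein kinase of the intestine and cartilage. *Ogn*, *Aspn* and *Omd*, which mark the other tumor cells, encode small leucine-rich proteoglycans of connective tissue matrix, and *Apod* a secreted lipocalin.

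The proximal promoters of *Krt20*, *Esm1* and *Nppb*, and of *Chac1*, a glutathione-degrading enzyme of the integrated stress response discussed with the other stress genes, are shown because the cells are defined or set apart by these genes. Each is 250 bases before to 50 after the start of the Ensembl canonical transcript in GENCODE vM39, on the GRCm39 genome, written 5′ to 3′ on the strand of the gene. Capitals mark matches, on either strand, to the TEAD motif GGAATG or the ATF4 and CHOP motif TGATGNAA. The AP-1 motif TGANTCA was searched too.
*Krt20*, chr11:99328936-99329235, minus strand: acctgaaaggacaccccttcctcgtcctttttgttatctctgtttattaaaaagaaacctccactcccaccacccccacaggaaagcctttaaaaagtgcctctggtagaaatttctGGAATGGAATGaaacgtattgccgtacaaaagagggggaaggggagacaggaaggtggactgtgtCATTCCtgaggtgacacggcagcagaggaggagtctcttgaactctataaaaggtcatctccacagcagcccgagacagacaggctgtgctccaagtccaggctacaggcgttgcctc
*Esm1*, chr13:113345771-113346070, plus strand: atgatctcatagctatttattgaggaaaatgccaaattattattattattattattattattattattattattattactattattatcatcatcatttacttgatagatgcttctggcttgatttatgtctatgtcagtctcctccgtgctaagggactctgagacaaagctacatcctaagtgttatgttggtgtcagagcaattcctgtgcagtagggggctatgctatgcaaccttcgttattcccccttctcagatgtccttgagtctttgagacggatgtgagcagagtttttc
*Nppb*, chr4:148069995-148070294, plus strand: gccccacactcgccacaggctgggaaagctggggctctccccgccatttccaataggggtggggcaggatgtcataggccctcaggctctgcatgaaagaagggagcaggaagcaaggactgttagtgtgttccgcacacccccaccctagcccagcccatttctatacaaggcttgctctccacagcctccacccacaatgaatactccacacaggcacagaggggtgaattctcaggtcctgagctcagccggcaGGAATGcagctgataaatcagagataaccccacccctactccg
*Chac1*, chr2:119181439-119181738, plus strand: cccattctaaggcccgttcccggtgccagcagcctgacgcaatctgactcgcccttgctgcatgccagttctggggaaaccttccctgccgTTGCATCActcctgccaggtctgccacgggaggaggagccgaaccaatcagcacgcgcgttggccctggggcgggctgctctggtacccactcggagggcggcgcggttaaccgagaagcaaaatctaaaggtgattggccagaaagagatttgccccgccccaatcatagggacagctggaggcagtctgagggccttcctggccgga

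The *Krt20* window held 3 TEAD matches, whose leftmost bases lay 133, 128 and 68 bases before the start and of which the first pair overlap by a base. *Nppb* held a TEAD match just after its start, *Chac1* an ATF4 and CHOP match 159 bases before its start, and *Esm1* none of the 3 motifs. The windows of *Klk10*, *Btc* and *Prkg2* held none either. Among 21770 protein-coding promoters of this length, 7.14% held the AP-1, 14% the TEAD and 3.84% the ATF4 and CHOP motif. A match is a stretch of letters and says nothing of binding in these cells.

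The libraries held 8.32284e+07 UMIs in 7556 barcodes (UT) and 8.99189e+07 in 7221 barcodes (BUP). Krt20 cells were deep, with medians of 29765 and 27166 UMIs and 5696 and 5335 genes per cell, against 14348 and 14656 UMIs in Ogn cells. Their summed counts were 1.53758e+07 UMIs in UT and 2.23225e+07 in BUP. Levels are given as UMIs per 1000000 of these sums (CPM), which count molecules and are not divided by gene length. All intervals are 95%, exact, and cover counting error only. The libraries shared 68 cell barcodes, 14 Krt20 cells carried a shared barcode, and 1 barcode was a Krt20 cell in both.

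Krt20 cells were 6.67% of the kept UT cells (interval 6.11 to 7.28%) and 11.3% of the kept BUP cells (10.6 to 12.1%). This share was set in part by the mixing of CD45+ and CD45- cells. Of the Krt20 and Ogn cells together, Krt20 cells were 55.9% in UT (52.5 to 59.3%) and 42.2% in BUP (39.9 to 44.5%). Of the cells without a *Ptprc* UMI they were 25.8% in both libraries. The direction of the shares thus differed with the denominator. In the plot of the gene sums, cell by cell, the classes part because the rule and its mirror drew the line between them.

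**Figure D1:**
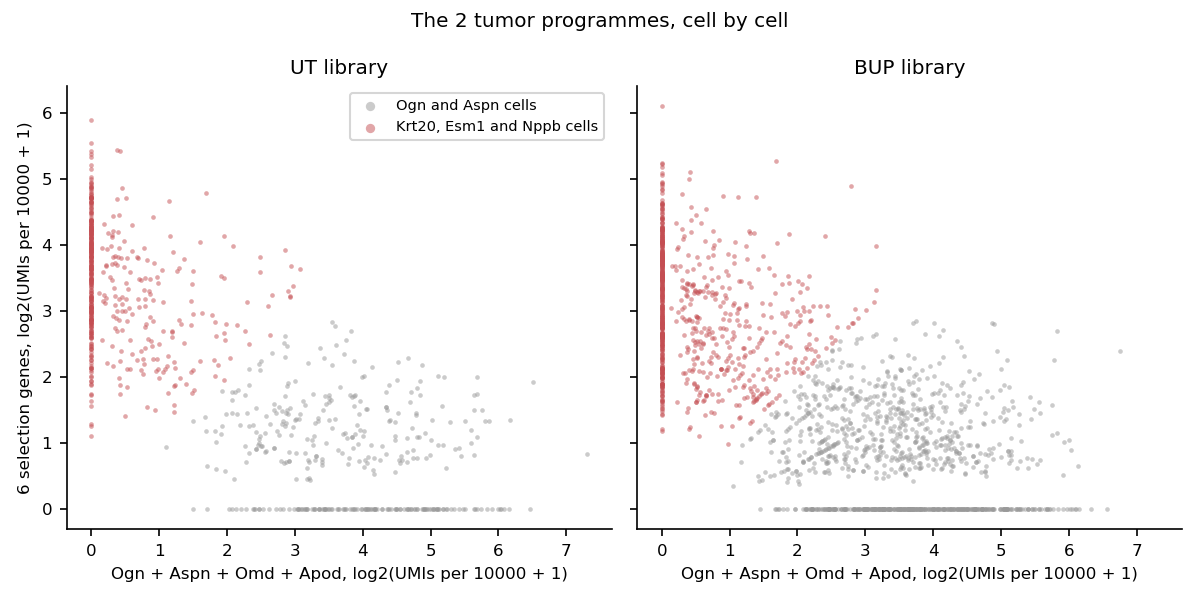
Each point is 1 cell, with the UMIs per 10000 of *Ogn*, *Aspn*, *Omd* and *Apod* on the horizontal axis and those of the 6 selection genes on the vertical axis, both as log2(value + 1), for Krt20 cells (red) and Ogn cells (grey). The UT panel holds 478 red and 377 grey points and the BUP panel 766 red and 1048 grey points, and the colors separate along the diagonal because the rule drew that line.

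The sum over the selection genes ran from 4 to 225 UMIs per cell in UT (median 25) and from 4 to 205 in BUP (median 17). Just inside the limit, 19 UT and 50 BUP cells had exactly 4 UMIs, and their summed level was 296 and 237 CPM. Just outside it, 25 UT and 52 BUP cells had 3 UMIs and met the rest of the rule, at 187 and 194 CPM. The programs were not exclusive. Of the Krt20 cells, 11.3% in UT and 17.1% in BUP also had 4 or more UMIs of the 4 Ogn genes, and 60.3% and 50.5% had none. Of the Ogn cells, 16.4% and 15.4% had 4 or more selection UMIs. Few Krt20 cells carried every marker, since 86 UT and 68 BUP cells had all 6 genes and the median cell had 4.

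*Prkg2* and *Esm1* were the most widely detected selection genes. *Prkg2* had a UMI in 95.8% of UT and 94.1% of BUP Krt20 cells, at 329 and 266 CPM. *Esm1*, on chromosome 13 at 113346021 to 113354632, had a UMI in 92.3% and 88.5%, at 405 CPM (395 to 415) and 322 CPM (315 to 329). *Krt20*, on chromosome 11 at 99319227 to 99328985, was found in 81.4% and 79.8% of cells at 194 CPM (187 to 201) and 158 CPM (153 to 163). These 3 genes were present in most cells of both libraries. Free RNA and mixed droplets give UMIs in cells that should lack a gene, and in cells with a *Ptprc* UMI, whose median depth was 8323 and 8452 UMIs, *Krt20* stood at 12.5 and 9.24 CPM and *Esm1* at 30.5 and 21.6 CPM.

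*Nppb*, *Klk10* and *Btc* were patchy. *Nppb*, on chromosome 4 at 148069859 to 148071662, had a UMI in 46.2% of UT and 34.9% of BUP cells, at 114 CPM (109 to 120) and 60.4 CPM (57.3 to 63.7). The 10% of cells with most *Nppb* held 68.7% of its UMIs in UT and 76.4% in BUP, and for *Klk10* this share was 71.9% and 75.8%. *Klk10* was detected in 39.3% and 30.2% of cells, at 72.3 and 43.3 CPM. *Btc* was detected in 48.7% and 39.0%, at 61.1 and 42.4 CPM. For *Krt20* the top 10% of cells held only 38.2% and 37.7% of the UMIs, so the hormone and peptidase genes were the more unevenly spread of the set. Ogn cells had 2.39 and 3.19 CPM of *Nppb*, 2.56 and 2.23 CPM of *Klk10* and 3.07 and 2.23 CPM of *Btc*.

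**Figure D2:**
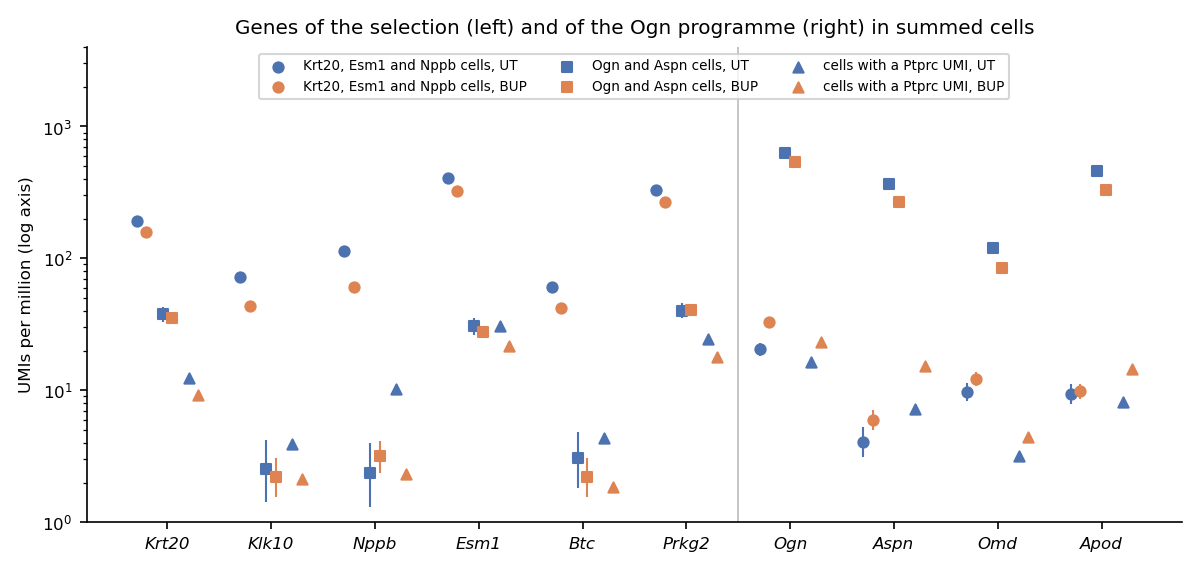
Summed CPM (log axis) of the 6 selection genes and the 4 Ogn genes in Krt20 cells (circles), Ogn cells (squares) and cells with a *Ptprc* UMI (triangles), in UT (blue) and BUP (orange), with bars for exact 95% counting intervals on circles and squares. *Esm1* is highest of the selection genes in Krt20 cells at 405 and 322 CPM, while *Nppb* falls from 114 and 60.4 CPM there to 2.39 and 3.19 CPM in Ogn cells.

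The label calls these tumor cells of a colon carcinoma line, and *Krt20* is a gene of epithelium, but mesenchymal genes were high in sum. The 21 mesenchymal genes summed to 15735 CPM in UT and 16894.5 CPM in BUP, against 14478 and 14282 CPM in Ogn cells. Of these, *Vim*, the intermediate filament of mesenchymal cells, stood at 6321 and 6266 CPM, whereas *Thy1* had only 5 and 46 UMIs. *Spp1*, the secreted phosphoprotein osteopontin and not in that list, stood at 10733 and 9777 CPM. The 28 epithelial and colon genes summed to only 31.9 CPM in UT and 17.2 CPM in BUP, and 11 of them were at 0 in both. *Epcam* had 1 and 0 UMIs, and *Cdh1*, the epithelial cadherin, had 1 in each library. *Krt18* was low at 15.4 and 12.9 CPM. *Krt8*, its usual partner, had 200 UMIs in 23 UT cells and 36 in 8 BUP cells, with 68.0% and 91.7% of them in 5 cells. *Krt20* thus stood in these cells with low levels of the listed keratins and junction genes that accompany it in gut epithelium. *Cdkn2a*, which the line lacks, had 1 UMI in each library.

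Markers of other cells were low. *Cldn5* and *Tie1* of endothelium were at 0, *Kdr* had 0 and 1 UMIs and *Cdh5* 1 and 1, so *Esm1* came without the endothelial genes that it is known with. *Tek*, an angiopoietin receptor, was the exception at 55.0 and 52.0 CPM, close to its 52.7 and 47.1 CPM in Ogn cells. The 10 macrophage markers summed to 59.4 and 44.1 CPM, against 13734 and 11038 in cells with *Ptprc*, with none at 0. The 10 T and NK cell markers summed to 6.31 and 4.75 CPM (1 at 0), and the 8 neutrophil and mast cell markers to 9.30 and 24.1 CPM (none at 0). The 12 fibroblast and pericyte markers summed to 263 and 385 CPM (1 at 0), of which *Dcn*, a matrix proteoglycan, made up 235 and 344 CPM, against sums of 5850 and 7823 CPM in the cells over the collagen limit. The 6 erythroid markers summed to 13.9 and 28.3 CPM (2 at 0). The 4 Y-linked genes summed to 1.04 and 0.627 CPM, against 138 and 154 CPM in cells with *Ptprc*, which came from the male hosts, and 1.36 and 0.421 CPM in Ogn cells.

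Krt20 cells were set beside Ogn cells within each library to show what the selection genes go with. Of 3881 genes with at least 200 UMIs and at least 50 CPM in a sum, the rule genes left out, 170 (4.38%) were 2-fold or more higher in Krt20 cells in both libraries and 167 (4.30%) were 2-fold or more lower. The median log2 ratio over all of them was 0.01 in UT and -0.02 in BUP. Both classes were picked on measured values of the same cells, so these ratios are a description with no test. A gene could enter through a single sum, that of the class where it was high, which favors calls in that direction. The 12 genes named as furthest below Ogn cells were all under 50 CPM in both Krt20 sums. *Car6* entered only through UT Krt20 cells.

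Mitosis genes were the most uniform group above Ogn cells. All 10 of the G2 and M phase genes that could be compared were 2-fold or more higher, with a median log2 ratio of 2.91 in UT and 3.22 in BUP. *Cdc20*, an activator of the anaphase-promoting complex, stood at 68.3 and 54.4 CPM against 5.28 and 3.91 CPM in Ogn cells. *Ube2c*, the ubiquitin carrier that works with it, stood at 180 and 156 CPM against 18.2 and 7.16 CPM. The spindle and centromere genes *Prc1*, *Cenpf*, *Cenpa*, *Cenpe* and the survivin gene *Birc5* had log2 ratios between 2.95 and 4.14 in the 2 libraries. Of 14 S phase genes compared, 12 were 2-fold or more higher, with medians of 1.57 and 1.82.

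Depth makes such genes easier to find, so each cell was also thinned to 5000 UMIs. The cells had still been chosen by 4 or more UMIs at full depth, which favors deep cells, and thinning does not undo that choice. After thinning, 39.8% of UT Krt20 cells (35.4 to 44.3%) and 30.7% of BUP Krt20 cells (27.5 to 34.2%) had 2 or more UMIs of the 19 G2 and M phase genes. In Ogn cells the shares were 6.04% (3.83 to 9.01%) and 3.97% (2.86 to 5.35%). Thinning left out 3 UT and 5 BUP Krt20 cells. Unthinned, the shares were 68.6% and 61.1% in Krt20 cells and 24.9% and 17.6% in Ogn cells. A share is of cells with these transcripts, not of cells seen to divide.

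Genes of amino acid and folate metabolism that belong to the integrated stress response were the next group. Of the 14 unfolded protein and integrated stress genes compared, 5 were 2-fold or more higher and none lower, with a list median of 0.63 in UT and 0.40 in BUP. *Phgdh*, the entry enzyme of serine synthesis, stood at 386 and 276 CPM against 89.5 and 82.8 CPM in Ogn cells. *Psat1*, the next enzyme of that pathway, stood at 212 and 151 CPM against 34.3 and 28.4 CPM. *Asns*, asparagine synthetase, had log2 ratios of 2.43 and 1.95, *Shmt2*, the mitochondrial serine hydroxymethyltransferase, 2.55 and 2.37, and *Trib3*, a pseudokinase induced by CHOP, 2.86 and 1.95. These 5 stood apart from the chaperones of the same list. *Hspa5*, the main endoplasmic reticulum chaperone, had ratios of 0.73 and 0.35, and *Atf4*, the transcription factor of the response, 0.47 and 0.32.

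Outside the list, *Mthfd2*, a mitochondrial folate enzyme, was among the 12 genes furthest above Ogn cells at 180 and 131 CPM against 24.9 and 18.7 CPM. *Aldh1l2*, another mitochondrial folate enzyme, had ratios of 3.50 and 2.44. *Chac1*, whose promoter is shown above, was below the 50 CPM of the comparison but stood at 36.5 CPM (33.5 to 39.6) and 24.1 CPM (22.1 to 26.2), against 2.56 and 2.41 CPM in Ogn cells. *Mthfd2*, *Aldh1l2* and *Chac1* were set beside the 5 genes of the list after their values were seen. Of the promoters of these 8 genes, only those of *Chac1* (ATF4 and CHOP) and *Aldh1l2* (AP-1 and TEAD) held one of the 3 motifs. Over the 169 promoters of the higher genes, 9.47% held the AP-1, 14.8% the TEAD and 3.55% the ATF4 and CHOP motif. Over the 166 of the lower genes these shares were 4.22%, 19.9% and 0.602%, and over the 3833 of all compared genes 5.43%, 13.9% and 2.27%.

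Growth factor ligands accompanied *Btc*. Of the 4 EGFR family ligands compared, *Areg* (amphiregulin) had log2 ratios of 2.17 and 2.03 and *Hbegf* (heparin-binding EGF-like growth factor) 2.05 and 1.58, both 2-fold or more higher in both libraries. *Nrg1*, a neuregulin, had 1.05 and 0.93, and *Ereg* (epiregulin) 0.40 and 0.11. In level *Ereg* was the highest of the ligands, at 393 and 336 CPM, and *Hbegf* next at 289 and 242 CPM. Their receptors had few counts. *Egfr*, which binds all of these but the neuregulin, had 4 UMIs in UT and 15 in BUP, or 0.260 and 0.672 CPM, below the 3.58 and 3.61 CPM of Ogn cells. *Erbb2*, a receptor without a ligand of its own, stood at 8.52 and 7.39 CPM and *Erbb3* at 1.17 and 1.21 CPM.

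Among other secreted products, *Bmp2*, a bone morphogenetic protein, was the only 1 of 6 cytokines and growth factors compared that was 2-fold or more higher, with log2 ratios of 2.50 and 2.0. *Qrfp*, the precursor of a neuropeptide of the RFamide family, stood at 80.0 and 69.6 CPM against 10.6 and 8.78 CPM in Ogn cells. *Timp1*, an inhibitor of matrix metalloproteinases, stood at 1216 and 962 CPM against 232 and 193 CPM. *Il11*, a cytokine of the IL-6 family below the minimum of the comparison, stood at 37.1 and 26.8 CPM against 7.33 and 6.32 CPM.

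*Car6*, a secreted carbonic anhydrase of saliva, was furthest above Ogn cells of all compared genes. It lies on chromosome 4 at 150271472 to 150285789 and stood at 62.2 CPM (58.4 to 66.3) in UT and 31.0 CPM (28.7 to 33.4) in BUP, against 0.852 and 0.902 CPM in Ogn cells. *Upp1*, uridine phosphorylase, stood at 232 and 157 CPM against 21.6 and 13.2 CPM. *Plaur*, the urokinase receptor, stood at 366 and 249 CPM against 52.3 and 33.4 CPM. *Hmga1*, a chromatin architectural protein, stood at 1076 and 916 CPM against 181 and 151 CPM, and its near-identical copy *Hmga1b* at 85.1 and 61.7 CPM. Reads of the 2 copies can be assigned to either, so the level of each is uncertain.

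**Figure D3:**
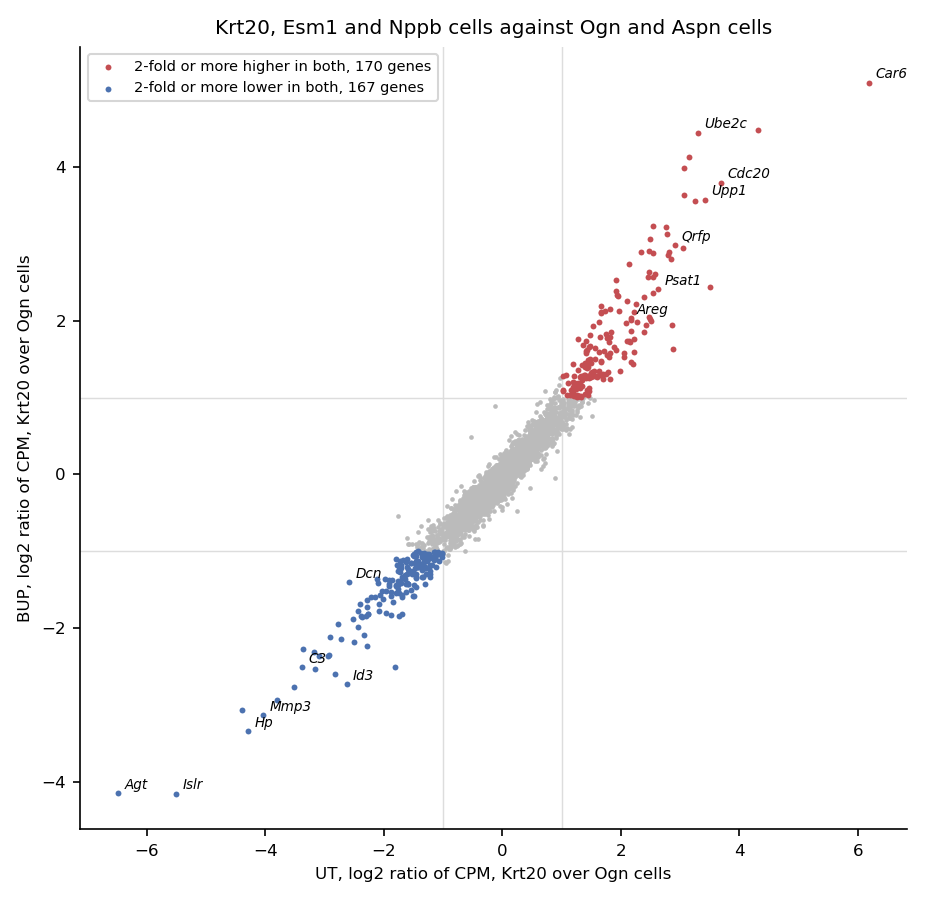
Each point is 1 of 3881 genes, placed by its log2 ratio of CPM in Krt20 cells over Ogn cells in UT (horizontal) and BUP (vertical), with the 170 genes 2-fold or more higher in both in red and the 167 lower in blue. *Car6* lies at the far upper right at 6.19 and 5.10, and *Agt* at the far lower left at -6.48 and -4.15.

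Secreted and complement genes made up most of the genes furthest below Ogn cells. *Agt*, angiotensinogen, stood at 0.845 and 4.93 CPM against 75.7 and 87.2 CPM in Ogn cells. *Islr*, a secreted protein of mesenchymal cells, had log2 ratios of -5.50 and -4.15, *Hp* (haptoglobin) -4.29 and -3.34, *Mmp3* (stromelysin) -4.04 and -3.14 and *Spon2* (a spondin of the matrix) -4.39 and -3.06. The complement genes *C3*, *C1ra* and *C1s2* had ratios between -3.37 and -2.36. *Selenop*, a selenium carrier, had -3.80 and -2.93, *Rarres2* (chemerin) -3.51 and -2.77, *Scara5* (a ferritin receptor) -2.82 and -2.60, and *Id3*, an inhibitor of basic helix-loop-helix factors, -2.63 and -2.72. In the Krt20 cells without any UMI of the 4 Ogn genes, a choice made after the data were seen, *Mmp3* had ratios of -6.19 and -6.23 and *Rarres2* -4.83 and -3.74. *Mmp3* in Krt20 cells was also held by few of them, with 79.8% and 73.2% of its UMIs in 5 cells. For *Agt*, with 13 and 110 UMIs, this share was 84.6% and 60%. It was 82.9% and 41.4% for *Hp* and 52.2% and 16.5% for *Islr*.

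Immediate early genes were lower too. Of 14 immediate early and heat shock genes compared, 8 were 2-fold or more lower and none higher, with medians of -1.61 in UT and -1.14 in BUP. *Zfp36*, which destabilizes cytokine messages, stood at 174 and 271 CPM against 841 and 893 CPM, and *Fos*, an AP-1 subunit, at 580 and 761 CPM against 2007 and 2081 CPM. *Dusp1*, a MAP kinase phosphatase, had log2 ratios of -1.91 and -1.37, and *Jun*, the partner of *Fos*, -1.70 and -1.18. Not every AP-1 gene was on that side. *Fosl1*, which encodes the AP-1 subunit FRA1, was higher, at 214 and 183 CPM against 73.8 and 75 CPM.

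The ERK pathway targets were split accordingly. Of 13 compared, *Fosl1*, the cyclin gene *Ccnd1* and the phosphatase gene *Dusp4* were 2-fold or more higher, *Ier3* was lower, and the list medians were -0.01 and -0.11. Among 8 YAP and TEAD targets none was higher, and *Ccn1* and *Ccn2*, matricellular proteins, were lower, with ratios of -1.54 and -1.15 for *Ccn1*. Of 12 hypoxia and glycolysis genes only *Ero1a*, an oxidase of the endoplasmic reticulum, was 2-fold or more higher, while the list median was 0.55 and 0.54. *Ldha*, lactate dehydrogenase, had ratios of 0.80 and 0.70.

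Antigen presentation and interferon genes passed 2-fold rarely. None of the 15 MHC class I genes compared was 2-fold higher or lower in both libraries, and their medians were -0.35 and -0.23. *H2-K1*, a class I heavy chain, stood at 1780 and 1740 CPM against 2630 and 2359 CPM, and *B2m*, its light chain, at 1574 and 1474 CPM against 2255 and 1942 CPM. Of 14 interferon response genes, *Oasl2*, *Iigp1* and *Irf7* were 2-fold or more lower and none higher, with medians of -1.15 and -0.83. *Cxcl1*, a chemokine that attracts neutrophils, was the only 1 of 3 chemokines and colony-stimulating factors that was 2-fold or more lower in both, at 300 and 558 CPM against 844 and 1139 CPM. Of the 17 mesenchymal genes 2 were lower and none higher, and of 6 p53 target and cell cycle inhibitor genes none passed 2-fold.

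**Figure D4:**
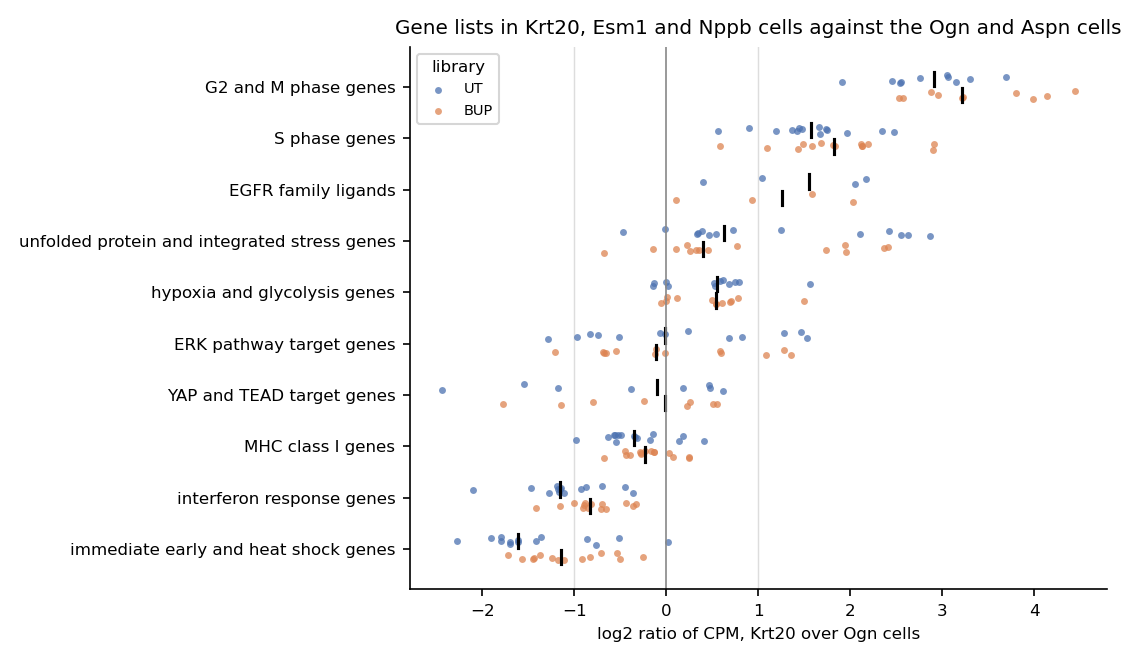
Each point is 1 compared gene of a list, placed by its log2 ratio of CPM in Krt20 over Ogn cells in UT (blue) and BUP (orange), with black lines for list medians and grey lines at 2-fold. The G2 and M phase genes center on 2.91 and 3.22 and the immediate early and heat shock genes on -1.61 and -1.14, with the MHC class I genes near 0.

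The receptors through which acetylcholine, the transmitter of the nerves this study was about, could act had few UMIs in Krt20 cells. The paper reported CHRM3, CHRM5 and CHRNA7 protein in CT26 cancer cells by flow cytometry. Few UMIs in these libraries do not show that a receptor protein is absent. The 26 genes of acetylcholine receptors and metabolism summed to 396 and 446 UMIs over all Krt20 cells, and 14 were at 0 there. That was 25.8 CPM in UT and 19.98 CPM in BUP, against 12.1 and 10.3 CPM in Ogn cells. In cells with a *Ptprc* UMI the list summed to 8.3 and 8.59 CPM. *Chrna1*, the alpha subunit of the muscle nicotinic receptor, was detected in 93 UT and 97 BUP cells, at 9.50 CPM (8.02 to 11.2) and 6.41 CPM (5.40 to 7.55). Ogn cells had 0.341 and 0.180 CPM of it, from 2 and 3 UMIs, and the log2 ratio of 4.80 in UT has an interval from 2.92 to 7.86 and that of 5.15 in BUP from 3.57 to 7.44. *Chrnb1*, the beta subunit of the same receptor, stood at 15.3 and 12.4 CPM. *Chrna7* had 1 and 0 UMIs and the muscarinic *Chrm3* 0 and 2, against a limit of 3 counts that a count of 0 allows, or 0.195 CPM in UT and 0.134 CPM in BUP.

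Voltage-gated sodium channels, the known targets of bupivacaine, summed to 3.51 and 3.32 CPM over 14 genes, of which 10 were at 0. The cyclic GMP genes that *Nppb* and *Prkg2* would work with were also scarce. *Npr1*, the receptor of B-type natriuretic peptide, stood at 2.54 and 3.40 CPM and *Prkg1*, the other cyclic GMP kinase, at 0.195 and 0.269 CPM. *Vasp*, a known kinase substrate, was the only 1 of 17 natriuretic peptide and cyclic GMP genes with enough counts, at 103 and 93.2 CPM. The 12 other kallikrein-related peptidases summed to 2.67 and 1.39 CPM with 9 at 0, so *Klk10* stood nearly alone in its family.

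Some genes varied in steps with the level of the selection genes and others did not. The cells were divided at 3 and 10 selection UMIs per 10000, which gave 30, 211 and 237 cells in UT and 115, 414 and 237 in BUP. A share of 49.6% of UT and 30.9% of BUP cells was in the highest range, so a range mixes with treatment in any sum over all cells. *Car6* stood at 7.10, 26.1 and 95.8 CPM from the lowest to the highest range in UT. *Timp1* stood at 310, 760 and 1661 CPM, *Plaur* at 121, 254 and 478 CPM and *Hbegf* at 107, 181 and 391 CPM. These genes had higher levels in each higher range. Each had already been seen to stand above Ogn cells, so the rise is no independent sign of a gradient. The 8 stress and folate genes together stood at 782, 1258 and 1564 CPM in UT and 527, 857 and 1398 CPM in BUP, but they were picked for their high level in these cells, so this is no independent sign of a gradient. The G2 and M phase genes showed no steady order, at 1095, 1408 and 1129 CPM in UT and 1103, 862 and 1174 CPM in BUP. The S phase genes were highest in the middle range, at 979, 1536 and 1000 CPM in UT and 996, 1269 and 1008 CPM in BUP. The immediate early and heat shock genes ran the other way, at 7862, 4889 and 3862 CPM in UT and 8210, 5914 and 3793 CPM in BUP. *Cp*, the ferroxidase ceruloplasmin, also ran down, from 135 to 77.5 and 25.7 CPM in UT.

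Cells with and without mitosis transcripts had different levels of some selection genes, in a direction that did not always hold in both libraries. The rule sums these selection genes, so a cell low in some had to be admitted through others, and their levels are shaped by the choice. In UT, *Nppb* stood at 87.2 CPM in the 189 cells with 2 or more thinned G2 and M phase UMIs and at 138 CPM in the 286 others, and in BUP at 56.0 and 63.1 CPM. *Btc* went the other way, at 78.7 against 45.7 CPM in UT and 62.2 against 30.9 CPM in BUP. *Esm1* stood at 351 against 451 CPM in UT but 343 against 308 CPM in BUP, and *Prkg2* at 297 against 358 CPM and 265 against 267 CPM. *Krt20* was close, at 193 against 194 CPM and 152 against 162 CPM. *Tenm4*, a teneurin of neuronal adhesion, stood at 59.2 against 128 CPM in UT and 28.1 against 53 CPM in BUP, and *Cp* at 25.4 against 77.1 CPM and 62.8 against 148 CPM. Cells with the transcripts were also deeper, with medians of 35429 against 27023 UMIs in UT and 33182 against 25063 in BUP.

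The comparison of BUP with UT within Krt20 cells asked whether the treatment went with a change in these tumor cells. Of 3391 genes with enough counts, 1 gene (0.0295%) was 2-fold or more higher in BUP and 3 genes (0.0885%) were 2-fold or more lower, and the median log2 ratio over all was -0.09. Genes under 50 CPM in both libraries were left out, among them the 12 named as furthest below Ogn cells. Of those, *Agt* (2.54), *Hp* (1.48), *C3* (1.46), *Islr* (1.35), *Spon2* (1.27), *Selenop* (1.18), *Id3* (1.13) and *Mmp3* (1.06) were past 2-fold higher in BUP. *C1s2* (0.58), *C1ra* (0.49), *Rarres2* (0.25) and *Scara5* (-0.05) were not. Each group was 1 library, so these are differences between 2 libraries, not between treatments. The counting interval was above 0 for 543 genes and below 0 for 1650, which shows the size of the sums rather than the spread between tumors.

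The 3 lower genes were *Tenm4*, *Ndst4* and *Car6*. *Tenm4*, on chromosome 7 at 95820453 to 96560300, stood at 95.9 CPM (91.0 to 101) in UT and 43.8 CPM (41.1 to 46.6) in BUP, a log2 ratio of -1.13 (-1.25 to -1.01). *Ndst4*, a heparan sulfate sulfotransferase on chromosome 3 at 125197722 to 125522549, stood at 69.1 and 31.9 CPM, a ratio of -1.11 (-1.25 to -0.98). *Car6* stood at 62.2 and 31.0 CPM, a ratio of -1.01 (-1.15 to -0.86). All 3 reached the minimum of 50 CPM in UT alone, the library where they were higher, which favors calls in that direction. *Car6* was just past 2-fold and fell short of it under median ratio scaling (-0.92), without *Krt20* in the rule (-0.93), with 6 selection UMIs (-0.94), with 3 per 10000 (-0.89), after thinning (-0.96) and without high doublet scores, and *Tenm4* did so under the stricter cell filter (-0.94). In Ogn cells the ratios were 0.12 for *Tenm4*, -0.39 for *Ndst4* and 0.08 for *Car6*, the last from few counts. In cells with a *Ptprc* UMI all 3 were lower in BUP too, at -0.62, -0.73 and -1.76. UMIs of these genes were spread over cells, with at most 16.9% in the top 5 cells for *Car6* and 15.7% for *Tenm4*.

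*Nppb* followed at -0.92 (-1.02 to -0.82), and the other selection genes were at -0.74 (*Klk10*), -0.53 (*Btc*), -0.33 (*Esm1*), -0.31 (*Prkg2*) and -0.29 (*Krt20*). All 6 were lower in BUP, but a rule that counts their UMIs also sets their range. *Trib3* (-0.85) and *Aldh1l2* (-0.81) of the stress and folate genes came next. *Tuba1c*, a tubulin, was at -0.75, *Rassf8*, a RAS association domain protein of cell junctions, at -0.75, *Fst*, the activin antagonist follistatin, at -0.74, *Nav3*, a microtubule-binding navigator protein, at -0.74, and the nuclear noncoding RNA *Neat1* at -0.71. In Ogn cells *Neat1* was at -0.58 and *Tuba1c* at -0.56, whereas *Trib3* was at 0.06 and *Aldh1l2* at 0.26. In cells with a *Ptprc* UMI, *Aldh1l2* was at -0.84, *Trib3* at -0.70, *Neat1* at -0.61, *Nav3* at -0.44 and *Tuba1c* at -0.34. There *Fst*, at 0.35, and *Rassf8*, at 0.10, went the other way. Whether the cell classes differed in these ratios was not tested.

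*Cp* was the gene 2-fold or more higher, with 53 CPM in the UT library against 117 CPM in BUP, a log2 ratio of 1.14 (1.02 to 1.25). The ratio was under 2-fold with mean values per cell (0.85) and after thinning to 5000 UMIs (0.68). Ogn cells had far more *Cp*, 545 and 561 CPM. *Cxcl1* stood at 300 and 558 CPM, a ratio of 0.90 (0.85 to 0.95), with 0.43 in Ogn cells. *Ifitm1*, an interferon-induced membrane protein, was at 0.68, *Zfp36* at 0.64, *Cebpd*, a transcription factor of acute inflammation, at 0.60 and *Ccn1* at 0.58. The membrane protein genes *Tmem176a* and *Tmem176b* were at 0.59 and 0.56, *Mustn1*, a small nuclear protein of muscle and skeleton, at 0.59, *Crip1*, a LIM domain protein, at 0.61, *Cox20*, a cytochrome oxidase assembly factor, at 0.55 and *Gstm1*, a glutathione transferase, at 0.55. Of these 12 genes, *Cp*, *Cxcl1*, *Ifitm1*, *Zfp36*, *Cebpd*, *Ccn1*, *Tmem176a*, *Tmem176b*, *Mustn1* and *Gstm1* were all lower in Krt20 than in Ogn cells, by log2 ratios from -3.36 to -1.03. In cells with a *Ptprc* UMI, all 12 but *Zfp36* (-0.18) and *Gstm1* (-0.05) were also higher in BUP, *Ccn1* at 0.85 and *Cp* at 0.69.

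The 4 Ogn genes moved with these, since they summed to 43.8 CPM in UT and 61.0 CPM in BUP Krt20 cells. In the highest range of the selection genes they stood at 28.9 CPM in both libraries, and there *Cp* was still at 0.71 (0.45 to 0.97), *Cxcl1* at 0.50 (0.42 to 0.58) and *Ccn1* at 0.36 (0.29 to 0.43). *Ifitm1* was at -0.08 (-0.22 to 0.05) and *Cebpd* at 0.07, so their difference was not seen in that range. *Tenm4* was at -0.77 (-0.93 to -0.61), *Ndst4* at -0.93 (-1.11 to -0.74), *Car6* at -0.62 (-0.79 to -0.45) and *Trib3* at -0.62 (-0.82 to -0.42). In the middle range *Tenm4* was at -1.37 (-1.57 to -1.17), *Cp* at 0.90 and *Cxcl1* at 1.03. The lowest range had 30 UT and 115 BUP cells. There *Tenm4* and *Ndst4* had the other sign, 0.47 (-0.21 to 1.22), from 21 and 108 UMIs, and 0.54 (-0.41 to 1.61), from 11 and 59 UMIs. Both intervals lay above the values of the upper ranges. For *Tenm4* and *Ndst4* the lower level in BUP was thus measured in the upper ranges and not in the lowest. *Car6*, at -0.89 (-2.41 to 0.81) from 6 and 12 UMIs, and *Trib3*, at -0.49 (-1.28 to 0.35), stayed below 0 there, with intervals that held 0.

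**Figure D5:**
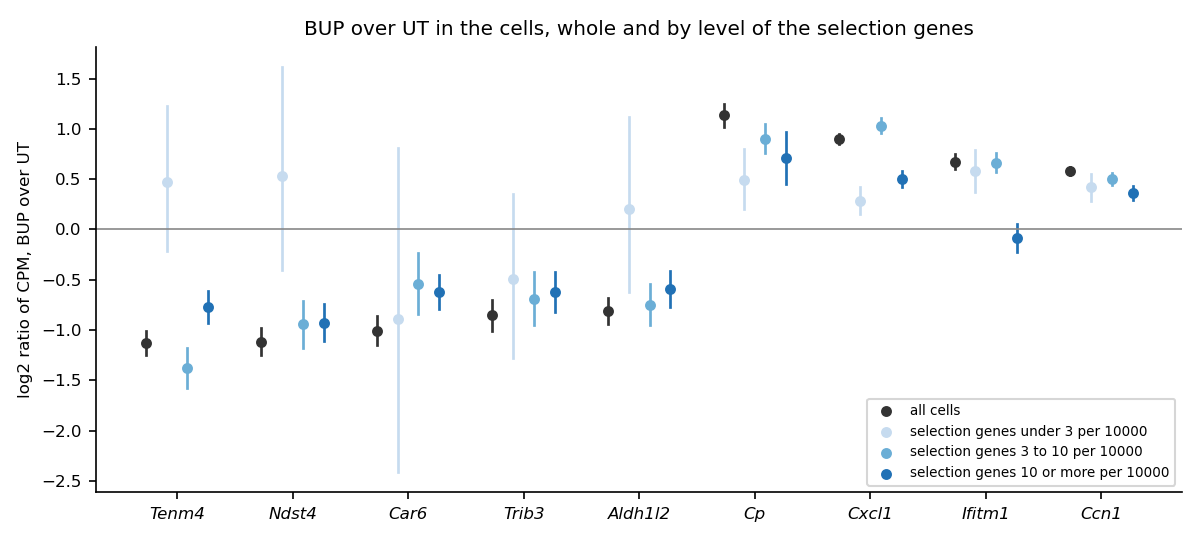
Log2 ratios of CPM in BUP over UT for 9 genes, with exact 95% counting intervals, in all Krt20 cells (dark grey) and in cells with under 3, 3 to 10 and 10 or more selection UMIs per 10000 (light to dark blue). *Tenm4*, *Ndst4* and *Car6* lie below 0 in the upper ranges, *Tenm4* and *Ndst4* at 0.47 and 0.54 in the lowest, *Cp* and *Cxcl1* above 0 in every range, and *Ifitm1* at -0.08 in the highest range.

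No compared gene of the lists outside the rule passed 2-fold between the libraries, but some lists leaned one way. List genes below the minimum, such as *Cxcl5* at 0.976 and 15.5 CPM and *Krt8* at 13.0 and 1.61 CPM, were not compared. Over all 3391 compared genes the interval lay below 0 for 1650 and above 0 for 543. A count of intervals in a short list therefore says little alone. All 10 G2 and M phase genes had intervals below 0, with a median of -0.34, and in Ogn cells the median was -0.86. In the highest range of the selection genes their summed ratio was 0.06 and in the middle range -0.71. The 13 unfolded protein and integrated stress genes had a median of -0.36, with 12 intervals below 0, and -0.05 in Ogn cells. *Psat1* was at -0.49, *Phgdh* at -0.48 and *Asns* at -0.47. The summed ratio of the 8 stress and folate genes was -0.16 in the highest range and -0.55 in the middle range. The 12 hypoxia and glycolysis genes had a median of -0.30 (10 intervals below 0) and the 4 EGFR ligands -0.24 (4 below 0). In the highest range these ligands went both ways, with *Areg* at -0.50, *Ereg* at -0.20, *Hbegf* at 0.03 and *Nrg1* at 0.56. Immediate early and heat shock genes leaned up, with a median of 0.33 and 11 of 14 intervals above 0, led by *Zfp36*, and in the highest range their summed ratio was -0.03. The MHC class I genes (-0.04) and the interferon response genes (0.05) were near the median of all genes, -0.09.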

How the data were processed

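Live sorted cells of 3 pooled CT26 tumors per group were made into 1 UT and 1 BUP library. The authors counted UMIs per gene and barcode on GRCm39 with Cell Ranger, as version 8.0.1 per the submitters' processing notes (which also list Seurat 5.0.1) and an earlier release per the methods of the study, and the deposited counts, whole numbers without normalization, were used for 33696 genes. Samples were grouped by their treatment label. Barcodes under 20% mitochondrial UMIs were kept and the Krt20 cells chosen by the stated counts. Members, lists and alternatives were chosen with earlier results of these data known.

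UMIs were summed over cells per library and scaled to CPM, with pandas 2.3.3, scipy 1.17.1 and numpy 2.4.6 under Python 3.11.15. Figures were drawn in matplotlib 3.10.9. Shares carry Clopper-Pearson, sums exact Poisson and ratios exact conditional 95% intervals, which cover counting error only. A count of 0 allows 3 counts. With 1 library per group no test was made. Compared genes had at least 200 UMIs and 50 CPM in a sum, and a gene was called at 2-fold. The calculation was tested on simulated data.

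Named genes were those of the rule, 2 to 6 per list by level, ratio or role, and the 12 furthest in each direction per comparison, without mitochondrial, ribosomal protein, Gm and Rik genes. Genes with few cells or below the minimum were named after their values were seen. Doublets were not removed. Scores came from Scrublet in scanpy 1.11.5, and an alternative left out the highest 6%. Other alternatives were stricter cells, 6 selection UMIs, a rule without *Krt20*, median ratio scaling, mean values per cell, 1000 UMIs per gene, no thinning, S phase genes and thinned cells. A limit of 3 selection UMIs per 10000 and cells without Ogn gene UMIs were added after the data were seen. No promoter has a methylation or binding measurement here, and protein sequences were not used here.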

Additional observations from a re-analysis of the deposited data

How the results depend on the processing

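No paired analysis was possible because each group has 1 library and the groups share a single replicate number. For the same reason no replicate could be left out. The share of Krt20 cells among Krt20 and Ogn cells in BUP, 42.2%, was 39.1% without *Krt20* in the rule, 38.3% with at least 3 selection UMIs per 10000 (added after the data were seen) and 36.3% (378 cells) after thinning, while the UT share stayed between 54.3% and 57.1%. Of cells without a *Ptprc* UMI it was 25.8% in both libraries. The count of genes 2-fold or more higher in BUP was 0 with mean values per cell, where *Cp* was at 0.85, and 0 after thinning, where it was at 0.68. The count of lower genes was 2 or 3 under each alternative run, and of the 3 reported *Ndst4* alone stayed past 2-fold in all of them (-1.45 to -1.02). The share of cells with mitosis transcripts in BUP was 34.2% at 3 selection UMIs per 10000. It was 68.6% in UT and 61.1% in BUP without thinning, and 68.4% and 67.3% for S phase genes. Genes 2-fold higher than in Ogn cells numbered 170 to 223 and lower genes 139 to 238, the highest of each in Krt20 cells without Ogn gene UMIs. Median ratio scaling moved all BUP over UT ratios up by 0.09. No ratio of a gene named by size changed sign under an alternative; 484 values moved by less than their counting interval and 115 by more. Depth limits the lowest range of the selection genes and any gene under 50 CPM.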

Other observations

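Several inflammatory genes had more UMIs in BUP than in UT Krt20 cells, but in very few cells, and they were picked after their values were seen. *Cxcl5*, a chemokine for neutrophils, had 15 UMIs in 9 UT cells and 346 in 33 BUP cells, of which 129 were in 1 cell. *Csf3*, the granulocyte colony-stimulating factor, had 0 UMIs in UT and 60 in 4 BUP cells, of which 41 were in 1 cell. *Il6* had 1 UMI in UT and 38 in BUP, with 18 in 1 cell. *Cxcl2*, another neutrophil chemokine, had 135 UMIs in 57 UT cells and 513 in 70 BUP cells, with 86.2% of the latter in 5 cells. The neutrophil gene *S100a8*, which tumor cells are not known for, had 22 and 152 UMIs, with 94.7% of the latter in 5 cells. The share of cells with a *Cxcl2* UMI was 11.9% in UT (9.16 to 15.2%) and 9.14% in BUP (7.19 to 11.4%), so it was not higher in BUP although the sum of UMIs was.

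*Saa3*, an acute phase protein, was also below the minimum for the BUP and UT comparison and was noticed afterwards. It stood at 5.98 CPM (4.82 to 7.34) in UT and 24.1 CPM (22.1 to 26.2) in BUP Krt20 cells, a log2 ratio of 2.01 (1.69 to 2.34), and at 31.0 and 87.2 CPM in Ogn cells, a ratio of 1.49 (1.27 to 1.72). *Id3* had BUP over UT ratios of 1.13 in Krt20 cells, 1.23 in Ogn cells and 0.94 in cells with a *Ptprc* UMI.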
